A study of Mus musculus with 23 samples.

Results

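The 40 genes described here carry out or drive cell division: G1 cyclins and their kinases, the E2F and FOXM1 transcription factors, the DNA replication machinery, the enzymes that make deoxynucleotides, and the kinases, motors and chromosome proteins of mitosis. They were taken by name from a list of cell cycle and proliferation genes; the rule used no measured value, but the list was drawn up with earlier results of these data known. All 40 were present among the 54446 genes of the count table and among the 15624 genes of the second table. The samples are bulk RNA from mouse skeletal muscle, which holds few dividing cells. A member's level reflects the number of cells that express it, dividing or not, and the RNA in each of them. These cannot be told apart here.

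The study is on transcription factors that act on proteasome genes in denervated muscle, which has lost its motor nerve supply and wastes. In the first set, 3 libraries came from PAX4 KO mice after 10 d of denervation, 3 from WT mice after 10 d of denervation and 3 from innervated muscle of WT mice. In the second set every muscle had been denervated for 10 d: 3 libraries came from NRF1PAL-PAX4 double KD mice, 3 from NRF1PAL KD mice and 2 from the WT mice called WT con, whose library 1 was not analysed here. NRF1PAL is nuclear respiratory factor 1, also called alpha-PAL, and PAX4 belongs to the paired-box family. Strain, age, the muscle, and how the KO and KD mice were made were not given in the sources used here, and nothing in the labels says whether libraries of a group came from separate animals, so p-values measure the spread between libraries only.

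Libraries held 21716216 to 42821396 reads in the first set and 23740769 to 30165765 reads in the second. Levels of the first set are CPM, a gene's reads scaled to a common library size after TMM scaling, and levels of the second are counts divided by the authors' size factors, called normalised counts; the scales are not comparable with each other, and neither is corrected for gene length. Pax4 had 0 reads in all 9 libraries of the first set, so its knockout could not be checked in the RNA. Nrf1 had 499, 476 and 524 normalised counts in the NRF1 KD libraries and 488 and 444 in WT con, a log2 fold change of 0.10 ± 0.12 (SE; adjusted p = 0.618). The double KD libraries had 450, 427 and 454 normalised counts of Nrf1 (adjusted p = 0.784 against WT con). The groups are therefore named by their labels alone. The 8 skeletal muscle markers checked, among them Acta1, Ckm and Ttn, were present in all libraries, with summed levels of 49400 to 66000 CPM in PAX4 KO, 60400 to 70900 CPM in WT denervated and 90800 to 112000 CPM in WT innervated muscle.

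A cell that leaves quiescence first makes D-type cyclins, which switch on CDK4 and CDK6. These kinases and cyclin E with CDK2 phosphorylate the retinoblastoma protein and free E2F factors, which turn on genes for origin licensing, replication and deoxynucleotide synthesis. Cyclin A and cyclin B with CDK1, the transcription factor FOXM1 and the MuvB complexes then carry the cell through G2 and mitosis. Muscle fibres are post-mitotic, and the cells that can divide in muscle are satellite cells, fibro-adipogenic progenitors, endothelial cells and immune cells.

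The promoter letters of the members differ by stage of the cycle. RefSeq windows (GRCm38.p6) of 250 bases before to 50 after the transcription start were found for 32 of the 40 genes and searched on both strands for 3 motifs: TTTGAA, the core of the cell cycle genes homology region (CHR) bound by MuvB complexes; CCAAT, the NF-Y box, which is often spaced in front of a CHR; and an E2F-type site written as TTTGGCGC, TTTCCCGC, TTTCGCGC or TTTGCCGC. The CHR letters were found in 13 of 17 members that act from S phase to mitosis (76.5%). They were found in 2 of 15 members of G1, licensing and deoxynucleotide supply (13.3%), beside 20.2% of all 27025 genes with a window. The class of these earlier members also counts the transcription factors E2f1 and Foxm1, here and below. CCAAT was found in 88.2% of the S phase to mitosis members and 66.7% of the earlier ones, beside 41.1% of all genes. The E2F-type letters were found in 1 of 17 (5.88%) and 6 of 15 (40%), beside 2.6% of all genes. Stretches upstream of the start are shown for 6 mitotic members, all but Cdc20 named in the results below. CHR letters (TTTGAA or its complement TTCAAA) and CCAAT letters (or ATTGG) are in capitals.
Cdk1, chr10:69352913-69353012, minus strand: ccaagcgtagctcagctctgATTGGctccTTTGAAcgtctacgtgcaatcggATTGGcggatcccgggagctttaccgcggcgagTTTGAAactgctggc
Top2a, chr11:99024190-99024299, minus strand: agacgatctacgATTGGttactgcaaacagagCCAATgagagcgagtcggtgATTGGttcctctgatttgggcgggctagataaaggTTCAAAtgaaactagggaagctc
Mki67, chr7:135716460-135716529, minus strand: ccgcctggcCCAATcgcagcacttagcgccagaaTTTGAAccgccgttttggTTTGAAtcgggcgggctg
Cdc20, chr4:118437344-118437413, minus strand: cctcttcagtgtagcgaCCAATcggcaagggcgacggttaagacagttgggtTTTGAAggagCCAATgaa
Kif11, chr19:37376322-37376381, plus strand: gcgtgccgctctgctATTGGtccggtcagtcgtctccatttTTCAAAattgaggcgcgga
Aurka, chr2:172370571-172370630, minus strand: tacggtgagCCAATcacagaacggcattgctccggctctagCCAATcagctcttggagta
Cdk1 and Mki67 each hold 2 CHR matches in the stretch shown, and Cdk1, Top2a, Mki67, Cdc20 and Kif11 each hold at least 1 with a CCAAT match upstream of it. Aurka has CCAAT matches at 51 and 19 bases before its start and its single CHR match 32 bases after it, outside the stretch. This place is not particular to Aurka. The single CHR matches of Bub1b, Plk1, Cenpa, Cdca8 and Kif23 also lie after the start, at 40, 30, 16, 13 and 2 bases. The licensing genes Mcm5 and Mcm6 are shown for contrast, with E2F-type and CCAAT letters in capitals; in both, matches on opposite strands overlap and form 1 block.
Mcm5, chr8:75109349-75109448, plus strand: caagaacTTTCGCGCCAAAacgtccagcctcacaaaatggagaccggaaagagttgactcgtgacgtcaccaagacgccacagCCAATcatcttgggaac
Mcm6, chr1:128359706-128359825, minus strand: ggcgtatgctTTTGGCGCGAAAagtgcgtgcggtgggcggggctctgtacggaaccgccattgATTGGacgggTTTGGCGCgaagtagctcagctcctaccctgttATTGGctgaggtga
A match is a description of these letters and not evidence that a factor binds.

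After 10 d of denervation, the members called in WT muscle were genes of G1, S phase entry and replication, and Aurka. Cyclin E1, the small subunit of ribonucleotide reductase Rrm2, E2f1, Pcna and Mcm7 were higher than in WT innervated muscle, and Aurka and Ccnd2 were lower. These 7 members passed an adjusted p of 0.05 in edgeR's quasi-likelihood test. The 5 higher and 2 lower are to be read against 32.3% of all 16146 genes called in this comparison, 16.5% higher and 15.8% lower, so the members' share does not exceed the background. At an unadjusted p under 0.05 there were 8 members higher and 2 lower, beside 43.4% of all genes, 22.2% higher and 21.2% lower. The median log2 fold change of the 40 members was 0.57, beside 0.02 for all genes, and 34 of 40 were above 0, beside 51.6% of all genes. Without WT denervated library 1 the median was 0.25. The count of higher members was 3, Ccne1, Pcna and Rrm2, without WT innervated library 1, and 2, Ccne1 and Rrm2, without WT innervated library 3. All genes called higher fell from 2661 to 1741 and 1761 in these fits. Coordinates below are on GRCm38.

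Among the G1 cyclins and kinases, Ccne1, the cyclin that activates CDK2 at the G1 to S transition (chr7:38097984-38107534, minus strand), had 1.18, 1.93 and 1.88 CPM in PAX4 KO, 1.47, 0.895 and 1.23 CPM in WT denervated and 0.246, 0.247 and 0.279 CPM in WT innervated libraries. Every denervated library lay above every innervated one. The log2 fold change of WT denervated over WT innervated was 2.20 ± 0.34 (SE; 4.61-fold, adjusted p = 0.00116), on 61, 32 and 47 reads in WT denervated against 5, 9 and 8 reads in WT innervated libraries. Ccnd2, a D-type cyclin (chr6:127125162-127152193, minus strand), had 16.5, 20.2 and 15.2 CPM in PAX4 KO, 13.6, 12.4 and 12.0 CPM in WT denervated and 23.1, 22.7 and 19.4 CPM in WT innervated libraries. It fell in WT denervated muscle with no overlap between the groups (log2 fold change -0.78 ± 0.13, adjusted p = 0.00169), and the PAX4 KO libraries lay between them or within the innervated range.

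Ccnd1, the other D-type member, had 13.8, 17.5 and 20.3 CPM in PAX4 KO, 17.6, 5.79 and 8.30 CPM in WT denervated and 16.8, 17.1 and 10.3 CPM in WT innervated libraries. WT denervated library 1 was as high as the innervated ones and libraries 2 and 3 were below them, and the difference did not pass (log2 fold change -0.48 ± 0.36, adjusted p = 0.338). Without that library Ccnd1 was called lower. Cdk4, the kinase partner of the D cyclins, had 31.1, 37.9 and 36.8 CPM in PAX4 KO, 31.8, 29.6 and 33.2 CPM in WT denervated and 25.9, 27.6 and 25.6 CPM in WT innervated libraries. All 6 denervated libraries were above the innervated ones by a small margin, which did not pass in WT (log2 fold change 0.26 ± 0.10, adjusted p = 0.0798). Cdk2 and Ccne2 had log2 fold changes of 0.42 and 0.38 and were not called either (adjusted p = 0.058 and 0.22).

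E2f1, which turns on S phase genes (chr2:154559407-154569892, minus strand), had 1.49, 2.80 and 2.54 CPM in PAX4 KO, 1.93, 0.923 and 1.05 CPM in WT denervated and 0.493, 0.631 and 0.418 CPM in WT innervated libraries. Both denervated groups lay above the innervated one in every library, and the WT difference was 1.32 ± 0.38 in log2 (adjusted p = 0.0239). It was not called without WT denervated library 1 (0.92), WT innervated library 1 (1.29) or WT innervated library 3 (1.18). Foxm1, the transcription factor of G2 and M phase genes, had 1.63, 3.64 and 1.59 CPM in PAX4 KO, 2.09, 0.643 and 1.23 CPM in WT denervated and 0.443, 1.04 and 0.523 CPM in WT innervated libraries. The WT groups overlapped (log2 fold change 0.94 ± 0.52, adjusted p = 0.188).

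In the licensing and fork group, Pcna, the sliding clamp of DNA polymerase (chr2:132249162-132253314, minus strand), had 23.5, 28.1 and 29.5 CPM in PAX4 KO, 22.3, 23.1 and 21.1 CPM in WT denervated and 16.6, 17.0 and 15.4 CPM in WT innervated libraries. The 3 groups did not overlap, and the WT difference was small and tight (log2 fold change 0.44 ± 0.11, 1.35-fold, adjusted p = 0.0123). Mcm7, a subunit of the MCM2 to MCM7 helicase, had 14.6, 15.9 and 13.7 CPM in PAX4 KO, 12.8, 15.2 and 14.9 CPM in WT denervated and 10.0, 11.8 and 11.1 CPM in WT innervated libraries. It rose in WT denervated muscle (log2 fold change 0.38 ± 0.12, adjusted p = 0.0331), but not without WT denervated library 2 or 3 or WT innervated library 1 or 3. Its locus overlaps Cops6 and Ap4m1 on the other strand and 3 miRNA genes, and whether counting used strand was not given in the sources used here. Mcm5 had 3.24, 4.91 and 4.35 CPM in PAX4 KO, 3.27, 2.18 and 2.02 CPM in WT denervated and 1.82, 2.52 and 2.09 CPM in WT innervated libraries. The WT groups overlapped for Mcm5 (log2 fold change 0.21 ± 0.26, adjusted p = 0.57), and the other 6 genes of this group were not called either, with log2 fold changes of -0.30 for Cdc6 to 0.73 for Mcm6.

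Ribonucleotide reductase makes deoxynucleotides from ribonucleotides, and its subunits did not move together. Rrm2, the small subunit (chr12:24708241-24714146, plus strand), had 6.57, 12.0 and 9.75 CPM in PAX4 KO, 9.92, 13.0 and 14.8 CPM in WT denervated and 0.887, 4.28 and 0.558 CPM in WT innervated libraries. All 6 denervated libraries exceeded the highest innervated one, library 2, and the WT log2 fold change was 2.65 ± 0.57 (6.27-fold, adjusted p = 0.00609). Rrm1, the large subunit, had 40.1, 35.9 and 42.2 CPM in PAX4 KO, 49.1, 64.9 and 45.6 CPM in WT denervated and 57.5, 48.0 and 54.9 CPM in WT innervated libraries. Its WT log2 fold change was -0.01 ± 0.14 (adjusted p = 0.98), and thymidylate synthase Tyms had 0.55 ± 0.26 (adjusted p = 0.125).

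**Figure D1:**
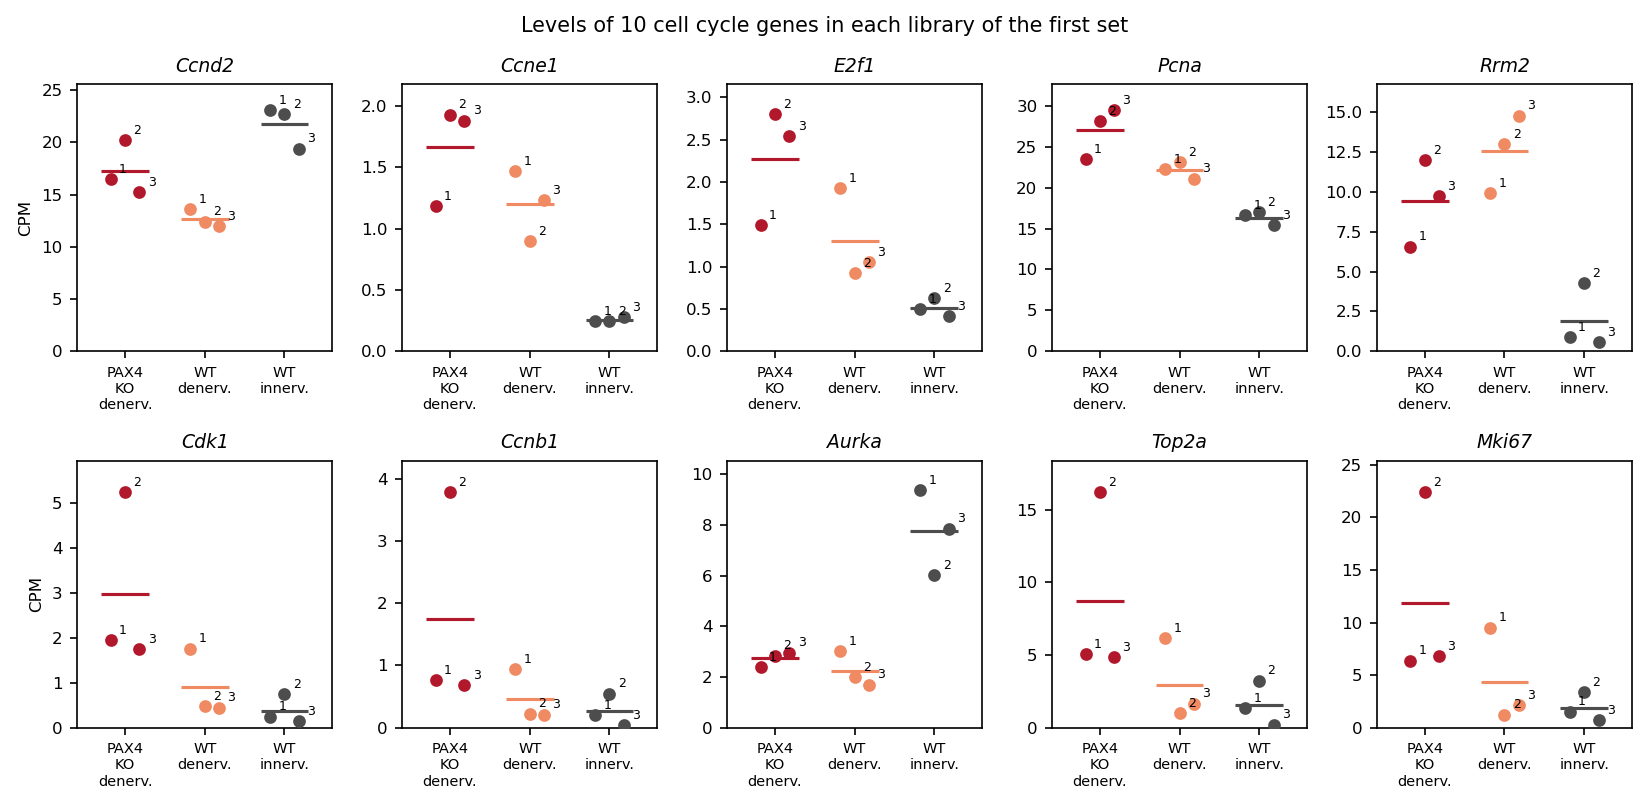
Levels of 10 cell cycle genes in CPM at TMM-scaled library sizes; each point is 1 numbered library of PAX4 KO denervated, WT denervated or WT innervated muscle and each bar the group mean. Ccne1, E2f1, Pcna and Rrm2 are higher in all denervated libraries, Aurka is lower, and Cdk1, Ccnb1, Top2a and Mki67 are led by 1 library of each group.

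The genes that act from S phase to mitosis gave a different picture. Aside from Aurka, none of the 19 such members was called between WT denervated and WT innervated muscle by the main edgeR fit. None had an unadjusted p under 0.05 there. DESeq2, and edgeR with no low-count filter, called 1 of them, Birc5, higher. Without WT innervated library 2, edgeR called Birc5 and Kif20a higher, with 2692 genes higher in all. Their fold changes were nonetheless mostly above 0: 18 of 19, at a median of 0.75 in log2, with adjusted p-values of 0.118 to 0.831. Cdk1, the kinase that drives entry into mitosis (chr10:69335146-69352938, minus strand), had 1.94, 5.24 and 1.74 CPM in PAX4 KO, 1.76, 0.476 and 0.445 CPM in WT denervated and 0.246, 0.740 and 0.139 CPM in WT innervated libraries. Its cyclin Ccnb1 had 0.761, 3.78 and 0.684 CPM in PAX4 KO, 0.939, 0.224 and 0.209 CPM in WT denervated and 0.197, 0.548 and 0.0349 CPM in WT innervated libraries. For both genes 1 library of each group stood above the others, library 2 in PAX4 KO, library 1 in WT denervated and library 2 in WT innervated muscle, and the WT groups overlapped (adjusted p = 0.255 for Cdk1 and 0.6 for Ccnb1). Ccna2, the cyclin of S phase and G2, had 1.21, 6.59 and 1.30 CPM in PAX4 KO, 2.07, 0.895 and 0.654 CPM in WT denervated and 0.739, 1.12 and 0.384 CPM in WT innervated libraries, with the same libraries highest (adjusted p = 0.517).

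Top2a, the topoisomerase that untangles chromosomes before mitosis (chr11:98992943-99024189, minus strand), had 5.05, 16.2 and 4.86 CPM in PAX4 KO, 6.16, 0.979 and 1.65 CPM in WT denervated and 1.33, 3.23 and 0.209 CPM in WT innervated libraries. Mki67, the chromosome surface protein used as a proliferation marker (chr7:135689784-135716361, minus strand), had 6.37, 22.4 and 6.79 CPM in PAX4 KO, 9.51, 1.23 and 2.17 CPM in WT denervated and 1.53, 3.40 and 0.697 CPM in WT innervated libraries. The WT denervated libraries 2 and 3 lay within the innervated range for both genes, and library 1 alone lay above it (adjusted p = 0.485 for Top2a and 0.297 for Mki67). The Mki67 log2 fold change of 1.17 carried an SE of 0.81.

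Aurka went the other way. Aurora kinase A, which matures centrosomes and assembles the spindle (chr2:172356190-172370535, minus strand), had 2.40, 2.84 and 2.96 CPM in PAX4 KO, 3.03, 1.99 and 1.70 CPM in WT denervated and 9.36, 6.03 and 7.85 CPM in WT innervated libraries. All 6 denervated libraries were below all 3 innervated ones. The log2 fold change was -1.78 ± 0.25 for WT denervated over WT innervated (0.291-fold, adjusted p = 0.000764), and -1.62 to -2.06 when each library was left out. Tpx2, which binds and activates Aurora A on spindle microtubules and is not among the 40 members, was also lower: it had 2.06, 5.39 and 2.52 CPM in PAX4 KO, 3.15, 1.65 and 1.57 CPM in WT denervated and 11.2, 7.21 and 10.5 CPM in WT innervated libraries. No denervated library reached the innervated ones (WT log2 fold change -2.17 ± 0.39, adjusted p = 0.00258). In innervated muscle library 1 was the highest for both genes and library 2 the lowest, the reverse of the place of library 2 for Cdk1, Ccnb1, Top2a and Mki67. The Aurka locus overlaps no other annotated gene.

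**Figure D2:**
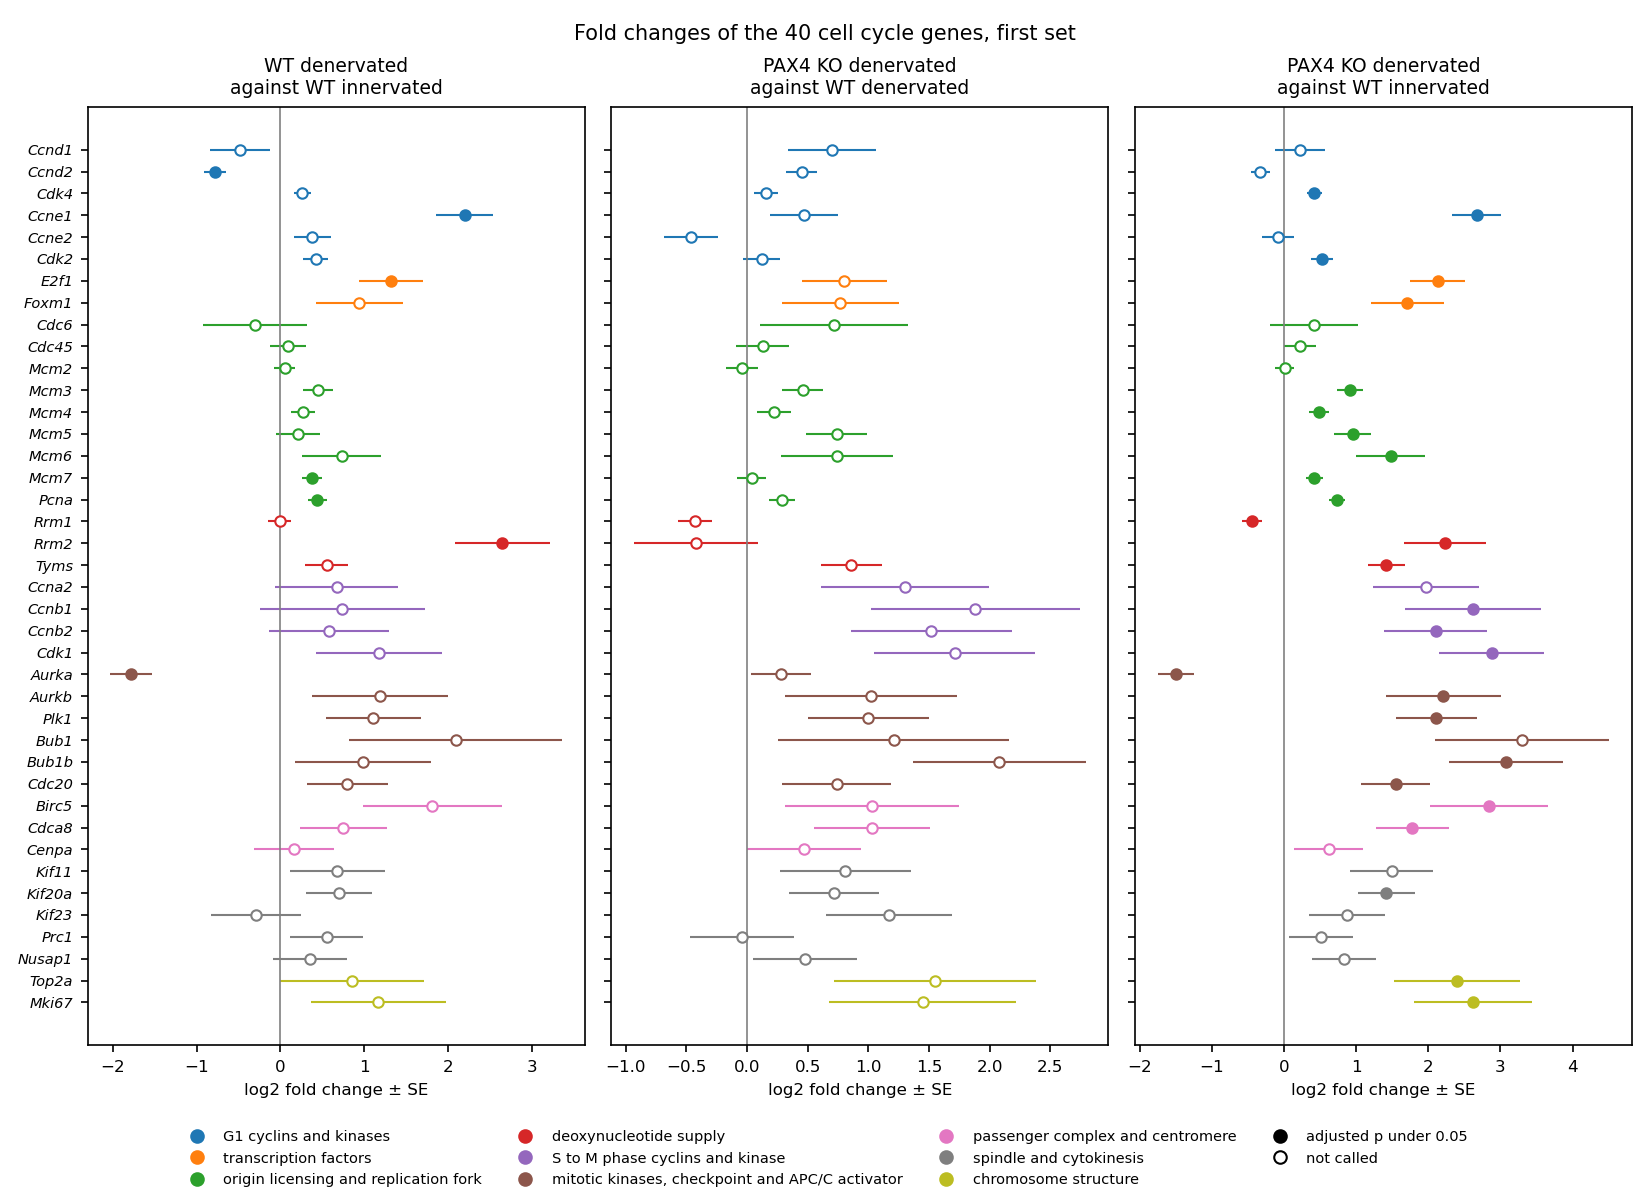
Log2 fold changes with their SE for the 40 genes, ordered and coloured by role, in 3 comparisons of the first set; filled points passed an adjusted p of 0.05. Aurka and Ccnd2 stand apart to the left in WT denervated over WT innervated muscle, no point is filled in PAX4 KO over WT denervated muscle, and 27 are filled in PAX4 KO over WT innervated muscle.

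Cell cycle genes outside the 40 were taken from further lists of the pathway, whose counts in WT denervated against WT innervated muscle are to be read against the 32.3% of all genes called. Among 7 CDK inhibitors tested, 1 was called higher and 1 lower. Cdkn1a, which encodes the inhibitor p21, had 252, 259 and 317 CPM in PAX4 KO, 199, 486 and 491 CPM in WT denervated and 37.1, 68.2 and 57.9 CPM in WT innervated libraries. All 6 denervated libraries lay above the innervated ones, and it rose 7.2-fold in WT denervated muscle (log2 fold change 2.85 ± 0.34, adjusted p = 0.000371). Cdkn1c, which encodes p57, had 7.02, 16.6 and 8.14 CPM in PAX4 KO, 7.92, 9.43 and 11 CPM in WT denervated and 22.5, 14.5 and 20.1 CPM in WT innervated libraries, and fell in WT (log2 fold change -1.01 ± 0.30, adjusted p = 0.0269). Cdkn1b, which encodes p27, stood at -0.05 in log2 (adjusted p = 0.776), and Cdkn2c and Cdkn3 had 0.13 and 0.18 (adjusted p = 0.7 and 0.849). Cdkn2a had 0 CPM in 5 of the 9 libraries and at most 0.0985 CPM, and was not tested.

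Of 7 other E2F factors, 3 were called higher in WT denervated muscle, led by E2f8 (log2 fold change 3.36, adjusted p = 0.000965) and E2f2 (1.69, adjusted p = 0.000968), and 1 lower, the repressor E2f6 (-0.84, adjusted p = 0.00194). Of 10 pocket protein and DREAM complex genes, 2 were called higher, Rb1 (1.22, adjusted p = 0.000743) and Lin37 (1.06, adjusted p = 0.00249), and 1 lower, Tfdp2 (-0.56, adjusted p = 0.00955). Of 7 other G1 genes, Myc was called higher (1.53, adjusted p = 0.00203) and Ccng1 lower (-0.62, adjusted p = 0.00434). Of 34 other replication genes, 6 were called higher, among them Gins1 (0.96, adjusted p = 0.00916) and Gins2 (1.68, adjusted p = 0.0118) of the GINS helicase complex, and 2 lower: thymidine kinase Tk1 (-1.47, adjusted p = 0.00101) and the dUTPase gene Dut (-0.45, adjusted p = 0.0417). Of 44 other mitotic genes tested, the kinetochore gene Spc25 (1.82, adjusted p = 0.00143) and Ckap2 (2.48, adjusted p = 0.0128) were called higher, and Tpx2 was the 1 called lower.

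PAX4 KO denervated muscle was next set against WT denervated muscle. None of the 40 members was called in either direction by edgeR, DESeq2 or limma-voom, beside 0.0186% of all genes by edgeR, and the lowest adjusted p was 0.283. At an unadjusted p under 0.05 there were 11 members, 10 higher and 1 lower, beside 12.9% of all genes, 8.1% higher and 4.84% lower. The median log2 fold change of the members was 0.73, beside 0.01 for all genes, and 35 of 40 were above 0, beside 51% of all genes. Without PAX4 KO library 2 the median was 0.28, and without WT denervated library 2 it was 0.48. The log2 fold changes were 1.30 to 1.88 for the cyclins and kinase of S to M phase, Ccna2, Ccnb1, Ccnb2 and Cdk1, and -0.42 and -0.43 for the reductase subunits Rrm2 and Rrm1. For these 4 cyclin and kinase genes the groups overlapped, with WT denervated library 1 above or between PAX4 KO libraries 1 and 3 and PAX4 KO library 2 above all others. Without PAX4 KO library 2 and WT denervated library 1, the members' median was 0.60 and none was called.

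The PAX4 KO and WT denervated libraries did not overlap in 5 of 40 members, beside 16.9% of all genes, so the members' share does not exceed the background. They were Ccnd2 (log2 fold change 0.45 ± 0.13), Pcna (0.29 ± 0.11), Tyms (0.86 ± 0.25), Kif20a (0.72 ± 0.37) and Rrm1 (-0.43 ± 0.14). Tyms, which makes thymidylate, had 2.93, 4.22 and 3.40 CPM in PAX4 KO, 2.5, 1.54 and 1.73 CPM in WT denervated and 1.13, 1.43 and 1.36 CPM in WT innervated libraries. Its 3 groups were ordered without overlap, and its adjusted p against WT denervated muscle was 0.283, as was that of Ccnd2. These 5 genes were singled out after their values were seen, and none was called. Cdkn1a stood at -0.51 ± 0.32 in log2 (adjusted p = 0.508), and no gene of the further cell cycle lists was called. Those lists held 0 of 44 mitotic genes and 0 of 34 replication genes called by edgeR, with 9 and 4 at an unadjusted p under 0.05 and medians of 0.86 and 0.25.

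Against WT innervated muscle, the PAX4 KO denervated muscle had 25 of 40 members higher and 2 lower, beside 40% of all genes called, 21.8% higher and 18.2% lower. This comparison shares its PAX4 KO libraries with the one above and its innervated libraries with the first, so the 3 are not independent. It joins denervation and genotype. The median log2 fold change was 1.42, beside 0.05 for all genes, and 0.91 without PAX4 KO library 2; 36 of 40 were above 0, beside 53.5% of all genes. Higher were 13 of the 20 G1, transcription factor, licensing and deoxynucleotide members, and 12 of 19 S phase to mitosis members other than Aurka. By the smallest adjusted p these were Ccne1 (log2 fold change 2.67 ± 0.34, adjusted p = 0.000343), Pcna (0.73 ± 0.11, adjusted p = 0.000763), E2f1 (2.13 ± 0.38, adjusted p = 0.00198), Tyms (1.42 ± 0.26, adjusted p = 0.00203), Mcm3 (0.92 ± 0.18, adjusted p = 0.00287) and Cdk4 (0.42 ± 0.10, adjusted p = 0.00931). Mcm3, a helicase subunit, had 6.82, 9.46 and 8.60 CPM in PAX4 KO, 7.08, 5.06 and 5.86 CPM in WT denervated and 4.24, 4.47 and 4.46 CPM in WT innervated libraries, and the PAX4 KO and innervated ranges were far apart.

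Among the mitotic members, Cdk1 was 7.38-fold higher in PAX4 KO than in WT innervated muscle (log2 fold change 2.88 ± 0.73, adjusted p = 0.0108) and Bub1b 8.44-fold (3.08 ± 0.79, adjusted p = 0.011). Bub1b, a kinase-like subunit of the spindle checkpoint, had 0.902, 4.4 and 2.69 CPM in PAX4 KO, 1.04, 0.532 and 0.288 CPM in WT denervated and 0.246, 0.603 and 0.0349 CPM in WT innervated libraries. Mki67 (2.62 ± 0.82, adjusted p = 0.028), Ccnb1 (2.62 ± 0.94, adjusted p = 0.0469) and Top2a (2.40 ± 0.87, adjusted p = 0.0494) lay near the threshold on the called side, and Ccna2 on the other (1.97 ± 0.73, adjusted p = 0.0516). Top2a kept its call in 5 of 13 alternatives and lost it in DESeq2 (adjusted p = 0.0531 there, 0.000256 to 0.185 over the alternatives), and Ccnb1 kept it in 7 of 12 and lost it when only these 2 groups were fitted (adjusted p = 0.055 there, 0.00107 to 0.239 over the alternatives). Mki67 kept its call in 10 of 13, and Cdk1 and Bub1b in 13 of 13 each. Ccnb1 had 27, 104 and 28 reads in PAX4 KO, 39, 8 and 8 in WT denervated and 4, 20 and 1 in WT innervated libraries; Ccnb1 and Bub1 did not pass the low-count filter when the WT groups were fitted alone, so they were tested through the PAX4 KO libraries, where they are high. In Mki67, Ccnb1, Top2a and Ccna2 all 3 PAX4 KO libraries exceeded all innervated ones. The 2 members lower were Aurka (-1.50 ± 0.25, adjusted p = 0.00134) and Rrm1 (-0.44 ± 0.14, adjusted p = 0.0321). Without PAX4 KO library 2 the count of higher members was 11: Bub1b, Ccne1, Cdk1, Cdk4, E2f1, Mcm3, Mcm5, Pcna, Plk1, Rrm2 and Tyms. It was 12 and 11 without WT innervated library 1 and library 3. All genes called higher numbered 3522 with every library, and 2758, 2523 and 2490 in these fits, in that order.

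From the further lists in this comparison, in which 40% of all genes were called, 20 of 44 mitotic genes were called higher and 1, Tpx2, lower (-1.54 ± 0.38, adjusted p = 0.00951); the higher ones were led by Spc25 (2.17, adjusted p = 0.000461) and Cdca2 (2.09, adjusted p = 0.00478). Of 34 replication genes 9 were higher, led by Gins2 (2.49, adjusted p = 0.0012) and Mcm10 (2.44, adjusted p = 0.00321), and 3 lower, led by Tk1 (-1.21, adjusted p = 0.00206) and Dut (-0.65, adjusted p = 0.00669). Of 7 CDK inhibitors, Cdkn1a (2.34, adjusted p = 0.0006) and Cdkn3 (1.83, adjusted p = 0.0288) were higher, and Cdkn1c (-0.85, adjusted p = 0.0443) and Cdkn2b (-1.07, adjusted p = 0.0461) lower. Of the 7 other E2F genes 3 were higher and 1 lower, of the 10 pocket protein and DREAM genes 3 and 1, and of the 7 other G1 genes 2 and 1.

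Within each group of the first set, a single library carried the mitotic members. PAX4 KO library 2 was the highest of its group for 19 of 19 S phase to mitosis members other than Aurka, WT denervated library 1 for 19 of 19 and WT innervated library 2 for 16 of 19. Aurka was left out of this count after its values were seen. Summed over the 19 genes, the level was 36.1, 108 and 37.5 CPM in PAX4 KO, 49.5, 17.1 and 18.0 CPM in WT denervated and 15.7, 26.7 and 9.52 CPM in WT innervated libraries. The WT denervated libraries 2 and 3 were thus no higher than innervated library 2. The 20 members of G1, transcription factors, licensing and deoxynucleotide supply had a far smaller spread. They summed to 210, 250 and 224 CPM in PAX4 KO and 215, 210 and 206 CPM in WT denervated libraries. In WT innervated libraries they summed to 189, 193 and 178 CPM. The median ratio of the highest to the lowest library was 3.05, 3.76 and 2.85 for the mitotic members in PAX4 KO, WT denervated and WT innervated muscle, and 1.42, 1.41 and 1.25 for the earlier ones.

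The libraries high in mitotic genes were also high in summed macrophage and fibroblast markers and low in summed skeletal muscle markers. The 13 macrophage markers, which include Cd68, Adgre1 and Csf1r, summed to 758, 1350 and 954 CPM in PAX4 KO, 847, 423 and 424 CPM in WT denervated and 239, 347 and 109 CPM in WT innervated libraries, and none was at 0 throughout. Of these markers 10 of 13 were called higher in WT denervated than in WT innervated muscle, 0 of 13 in PAX4 KO against WT denervated muscle (6 at an unadjusted p under 0.05, 13 above 0) and 13 of 13 in PAX4 KO against WT innervated muscle. The shares of all genes called higher in these comparisons were 16.5%, 0.0186% and 21.8%. The 8 markers of fibro-adipogenic progenitors and fibroblasts summed to 2510, 6050 and 2680 CPM in PAX4 KO, 2100, 1630 and 1620 CPM in WT denervated and 1750, 2220 and 1650 CPM in WT innervated libraries, so the same 3 libraries led their groups there, PAX4 KO library 2 by the widest margin. Not every marker followed the sum: Pdgfra had 47.9, 38.1 and 28.2 CPM in WT innervated libraries, with library 1 the highest. It had 52.8, 58.4 and 41.3 CPM in PAX4 KO and 43.6, 39.4 and 33.2 CPM in WT denervated libraries. The 3 libraries that led in the sums were also the lowest of their groups in the 8 skeletal muscle markers. These summed to 58300, 49400 and 66000 CPM in PAX4 KO, 60400, 69200 and 70900 CPM in WT denervated and 104000, 90800 and 112000 CPM in WT innervated libraries. The 8 satellite cell markers summed to 140, 168 and 139 CPM in PAX4 KO, 109, 131 and 164 CPM in WT denervated and 79.2, 99.5 and 108 CPM in WT innervated libraries, and Pax7 had 2.42 to 3.13, 2.41 to 3.95 and 2.71 to 4.18 CPM in the 3 groups. The part of these cell types in the mitotic levels was not tested.

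**Figure D3:**
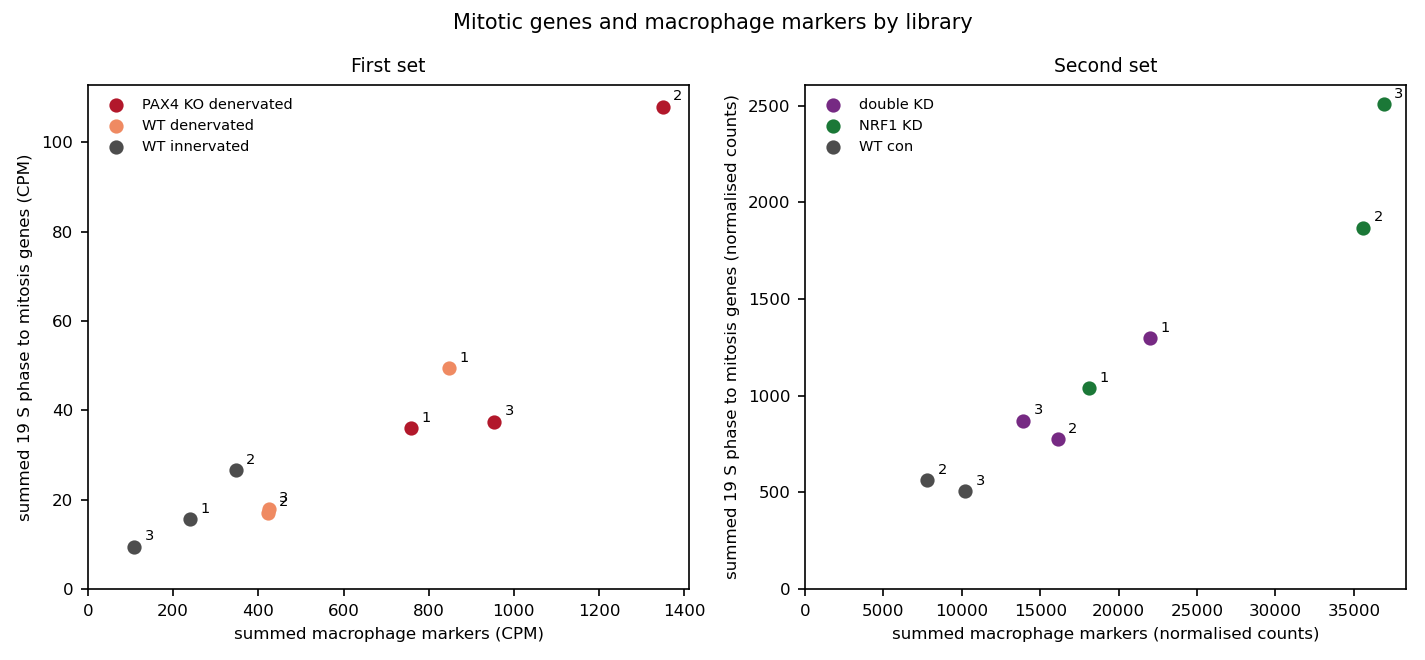
Summed level of the 19 S phase to mitosis genes other than Aurka (y axis) against the summed level of the macrophage markers (x axis) in each numbered library, in CPM for the first set (left; 13 markers) and in normalised counts for the second (right; 12 markers). PAX4 KO library 2 and NRF1 KD libraries 2 and 3 lie at the upper right, and WT denervated library 1 lies above libraries 2 and 3 of its group on both axes.

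In the second set, in which all muscles were denervated, NRF1 KD muscle had more of the mitotic genes than WT con. limma called 12 of 40 members higher and 1 lower, beside 11.3% of all 15624 genes, 7.58% higher and 3.72% lower. The 12 were Ccnd1, E2f1, Tyms and 9 mitotic members, Ccnb2, Cdk1, Mki67, Kif11, Top2a, Birc5, Aurkb, Cenpa and Kif23, and the 1 lower was Rrm1. The members' median was 1.05 in log2, beside 0.00 for all genes, and 34 of 40 were above 0, beside 50.1% of all genes. All 19 S phase to mitosis members other than Aurka were above 0, from 1.00 for Prc1 to 2.32 for Top2a, and all 19 had an unadjusted p under 0.05, beside 27.6% of all genes. In the authors' deposited table of this comparison, 26 of 40 members had an adjusted p under 0.05, 24 of them higher, beside 15.1% of all genes there. Among them were Ccnd2, Foxm1, Mcm5, Mcm6, Rrm2, Ccna2 and Ccnb1, none of which limma called.

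Ccnd1 (chr7:144929931-144939925, minus strand) had the smallest adjusted p of the members. It had 566, 587 and 508 normalised counts in double KD, 591, 597 and 695 in NRF1 KD and 274 and 355 in WT con libraries. All 6 knockdown libraries were above both WT con libraries. It was 2-fold higher in NRF1 KD muscle (log2 fold change 1.00 ± 0.15, adjusted p = 0.00416) and stayed called when any single library was left out. Ccnd2 had 556, 399 and 432 normalised counts in double KD, 497, 459 and 597 in NRF1 KD and 222 and 420 in WT con libraries, and Cdk4 had 1110, 1080 and 1220 in double KD, 1190, 1230 and 1240 in NRF1 KD and 1190 and 1180 in WT con libraries. The WT con libraries were far apart for Ccnd2 (0.75 ± 0.25, adjusted p = 0.0794) and close for Cdk4 (0.04 ± 0.10, adjusted p = 0.829).

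E2f1 had 72.5, 47.5 and 91.3 normalised counts in double KD, 71.1, 141 and 113 in NRF1 KD and 44.6 and 33.0 in WT con libraries, and it rose in NRF1 KD muscle (1.42 ± 0.36, adjusted p = 0.0313). Foxm1 had 36.3, 7.55 and 20.7 in double KD, 17.3, 37.6 and 57.7 in NRF1 KD and 9.79 and 9.70 in WT con libraries; the NRF1 KD libraries were all above WT con but spread over a wide range (1.69 ± 0.65, adjusted p = 0.122). None of the 9 licensing and fork genes was called by limma, although 3 had an unadjusted p under 0.05, and edgeR on the recovered reads called none. The authors' deposited values had Mcm6 and Mcm5 higher, with adjusted p-values of 0.0293 and 0.0367. Without NRF1 KD library 1, limma called both of these higher. Pcna had 878, 752 and 738 normalised counts in double KD, 706, 917 and 857 in NRF1 KD and 695 and 646 in WT con libraries (NRF1 KD 0.29 ± 0.14, adjusted p = 0.193). Mcm5 had 115, 76.6 and 77.2 in double KD, 76.8, 165 and 206 in NRF1 KD and 75.1 and 66.0 in WT con libraries, where NRF1 KD library 1 was close to WT con and libraries 2 and 3 were well above it (0.96 ± 0.38, adjusted p = 0.129).

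Deoxynucleotide genes again did not move together. Tyms had 72.5, 119 and 80.4 normalised counts in double KD, 94.1, 94.8 and 128 in NRF1 KD and 40.3 and 53.3 in WT con libraries and was higher in NRF1 KD muscle (1.16 ± 0.28, adjusted p = 0.0272). Rrm1 had 1320, 1560 and 1860 in double KD, 1360, 1260 and 1080 in NRF1 KD and 1800 and 1740 in WT con libraries, and fell in NRF1 KD muscle (-0.53 ± 0.15, adjusted p = 0.0423). Rrm2 had 328, 254 and 412 in double KD, 165, 304 and 240 in NRF1 KD and 371 and 454 in WT con libraries; its NRF1 KD libraries were all below WT con, without passing the threshold (-0.84 ± 0.26, adjusted p = 0.0672). With TMM scaling, or with edgeR on the recovered reads, Rrm1 was not called; nor was it without NRF1 KD library 2 or 3 or either WT con library.

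**Figure D4:**
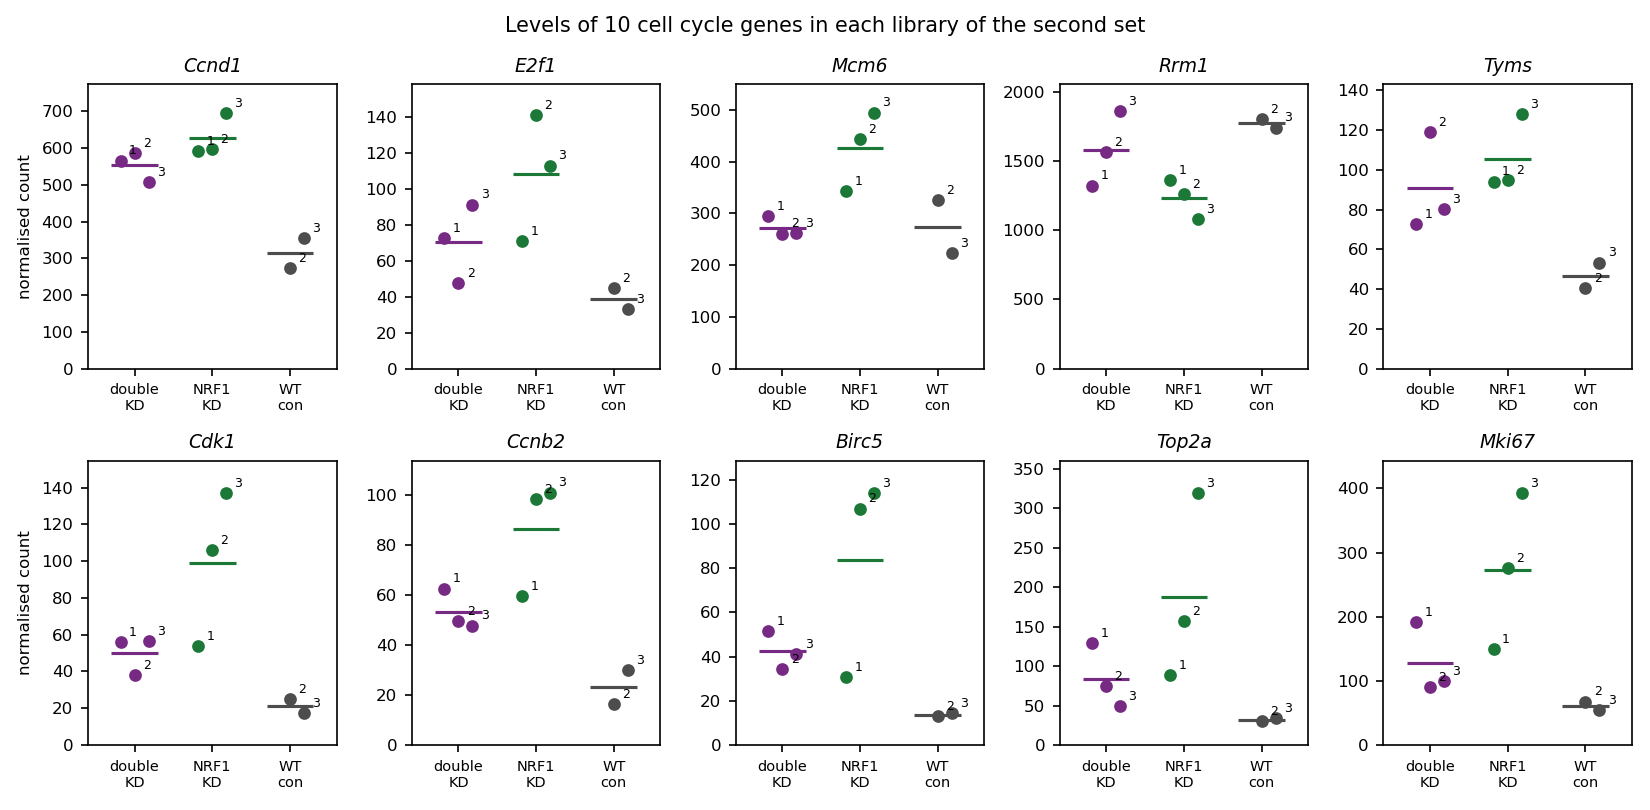
Levels of 10 cell cycle genes in normalised counts; each point is 1 numbered library of double KD, NRF1 KD or WT con muscle, all denervated for 10 d, and each bar the group mean. NRF1 KD libraries 2 and 3 lead for Cdk1, Ccnb2, Birc5, Top2a and Mki67, and Rrm1 is lowest in NRF1 KD muscle.

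Of the cyclins and kinase of S to M phase, Cdk1 had 56.1, 37.8 and 56.5 normalised counts in double KD, 53.8, 106 and 137 in NRF1 KD and 25 and 17.5 in WT con libraries, and Ccnb2, a B-type cyclin, had 62.6, 49.6 and 47.8 in double KD, 59.5, 98.4 and 101 in NRF1 KD and 16.3 and 30.1 in WT con libraries. Both rose in NRF1 KD muscle, Cdk1 by 2.09 ± 0.40 in log2 (adjusted p = 0.0108) and Ccnb2 by 1.87 ± 0.35 (adjusted p = 0.00981). Ccna2 had 100, 51.8 and 110 in double KD, 97.0, 138 and 233 in NRF1 KD and 79.4 and 43.6 in WT con libraries (1.30 ± 0.43, adjusted p = 0.0794). Ccnb1 was sparse, with 12.1, 5.39 and 6.52 in double KD, 4.80, 34 and 33.4 in NRF1 KD and 4.35 and 2.91 in WT con libraries (2.06 ± 0.79, adjusted p = 0.12).

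Mki67 had 192, 90.6 and 100 normalised counts in double KD, 150, 276 and 393 in NRF1 KD and 67.5 and 54.3 in WT con libraries, and Top2a had 129, 74.4 and 48.9 in double KD, 88.3, 157 and 319 in NRF1 KD and 30.5 and 33.9 in WT con libraries. Every NRF1 KD library exceeded both WT con libraries in these genes (Mki67 2.05 ± 0.41, adjusted p = 0.012; Top2a 2.32 ± 0.50, adjusted p = 0.0173). Birc5, the survivin subunit of the chromosomal passenger complex, had 51.7, 34.5 and 41.3 in double KD, 30.7, 107 and 114 in NRF1 KD and 13.1 and 14.5 in WT con libraries (2.31 ± 0.51, adjusted p = 0.0182). Its partner kinase Aurkb had 28.6, 16.2 and 13.0 in double KD, 31.7, 82.3 and 68.5 in NRF1 KD and 6.53 and 19.4 in WT con libraries (2.21 ± 0.56, adjusted p = 0.0313). Aurka was not called: it had 102, 69.0 and 94.6 in double KD, 101, 99.3 and 125 in NRF1 KD and 96.9 and 59.2 in WT con libraries (0.50 ± 0.28, adjusted p = 0.271).

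Cenpa, the centromeric histone H3 variant, had 114, 52.9 and 116 normalised counts in double KD, 138, 179 and 252 in NRF1 KD and 66.4 and 69.8 in WT con libraries (NRF1 KD 1.42 ± 0.36, adjusted p = 0.0308). The spindle motor gene Kif11 had 59.3, 43.2 and 51.1 in double KD, 47.0, 73.3 and 85.2 in NRF1 KD and 26.1 and 17.5 in WT con libraries (1.59 ± 0.34, adjusted p = 0.0162), and the cytokinesis motor gene Kif23 was also called (1.53 ± 0.40, adjusted p = 0.034). NRF1 KD library 1 was the lowest of its group for 19 of 19 S phase to mitosis members other than Aurka, and library 3 the highest for 15 of 19. These 19 genes summed to 1300, 775 and 872 normalised counts in double KD, 1040, 1870 and 2510 in NRF1 KD and 565 and 506 in WT con libraries. All genes called higher numbered 1184 with every library, and 1190, 595 and 424 without NRF1 KD libraries 1, 2 and 3. The count of members called higher also depended on single libraries. It was 22 without NRF1 KD library 1 and 4 without library 2. Without library 3 it was 2, Ccnb2 and Ccnd1. Leaving out a WT con library left 1 in that group, so calls there rest on the spread of the other groups. The members' median log2 fold change was 1.02 without WT con library 2 and 1.13 without WT con library 3.

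The libraries high in mitotic genes were again high in macrophage markers within NRF1 KD and double KD muscle, but not between the WT con libraries. The 12 listed markers, all but Itgam, summed to 22000, 16100 and 13900 normalised counts in double KD, 18100, 35600 and 36900 in NRF1 KD and 7800 and 10200 in WT con libraries. All 12 were called higher in NRF1 KD muscle and 2 of 12 in double KD muscle, beside 7.58% and 2.39% of all genes. NRF1 KD library 3 and double KD library 1 were also the highest of their groups in fibro-adipogenic progenitor and fibroblast markers, at 71600 and 79500 normalised counts, and the lowest in skeletal muscle markers, at 1980000 and 2390000. NRF1 KD library 2, also high in mitotic genes and macrophage markers, had 51700 in these fibroblast markers. It was the highest of its group in skeletal muscle markers, at 2540000. The 7 listed satellite cell markers summed to 2980 to 3400 in double KD, 3600 to 3870 in NRF1 KD and 3840 to 4330 in WT con libraries, and Pax7 had 72.8 to 96.7, 49.0 to 96.6 and 81.6 to 107 normalised counts. The part of these cells in the mitotic levels was not tested.

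In the double KD muscle, Ccnd1 was the 1 member of 40 called against WT con (log2 fold change 0.82 ± 0.15, 1.77-fold, adjusted p = 0.0177), beside 4.08% of all genes, 2.39% higher and 1.7% lower. It was not called without double KD library 2 or without WT con library 2 (0.78 and 0.64). At an unadjusted p under 0.05 there were 13 members, 12 higher and 1 lower, beside 21.4% of all genes, 12% higher and 9.49% lower. The members' median was 0.54 in log2, beside 0.02 for all genes, and 0.35 without double KD library 1; 33 of 40 were above 0, beside 52.1% of all genes. Without WT con library 3, which left 1 library in that group, the members' median was 0.43. None of the 19 S phase to mitosis members other than Aurka was called by limma or by edgeR on the recovered reads, 8 had an unadjusted p under 0.05, and all 19 lay above 0, with a median of 0.92. Kif11 (1.21 ± 0.34, adjusted p = 0.0731), Ccnb2 (1.22 ± 0.35, adjusted p = 0.0785), Cdk1 (1.20 ± 0.40, adjusted p = 0.118) and Mki67 (0.98 ± 0.41, adjusted p = 0.195) are examples. Of the 40 members, 2 had an adjusted p under 0.05 in the authors' deposited table, both higher, beside 8.53% of all genes there.

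The difference between double KD and NRF1 KD muscle was tested directly, and no member passed, beside 0.134% of all genes called by limma, 0.0768% higher and 0.0576% lower. The members nonetheless leaned to lower values in the double KD: 4 of 40 were above 0, beside 51% of all genes, the median was -0.45 beside 0.01 for all genes, and 8 had an unadjusted p under 0.05, 7 lower and 1 higher, beside 11.2% of all genes, 6.78% lower and 4.45% higher. The median was -0.80 without NRF1 KD library 1 and -0.28 without NRF1 KD library 3. edgeR on the recovered reads called none. The smallest adjusted p was 0.207, for the helicase gene Mcm6, which had 295, 261 and 262 normalised counts in double KD, 343, 444 and 495 in NRF1 KD and 326 and 223 in WT con libraries. Mki67 stood at -1.07 ± 0.36 in log2 (adjusted p = 0.29), Aurkb of -1.58 ± 0.50 (adjusted p = 0.264) and Cenpa of -1.04 ± 0.32 (adjusted p = 0.246). For Mki67, double KD library 1 was above NRF1 KD library 1, so the groups overlapped. Rrm1 was the 1 higher at an unadjusted p under 0.05 (0.35 ± 0.13, adjusted p = 0.326). The knockdown groups share their WT con libraries, so their differences from WT con are not independent of each other.

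**Figure D5:**
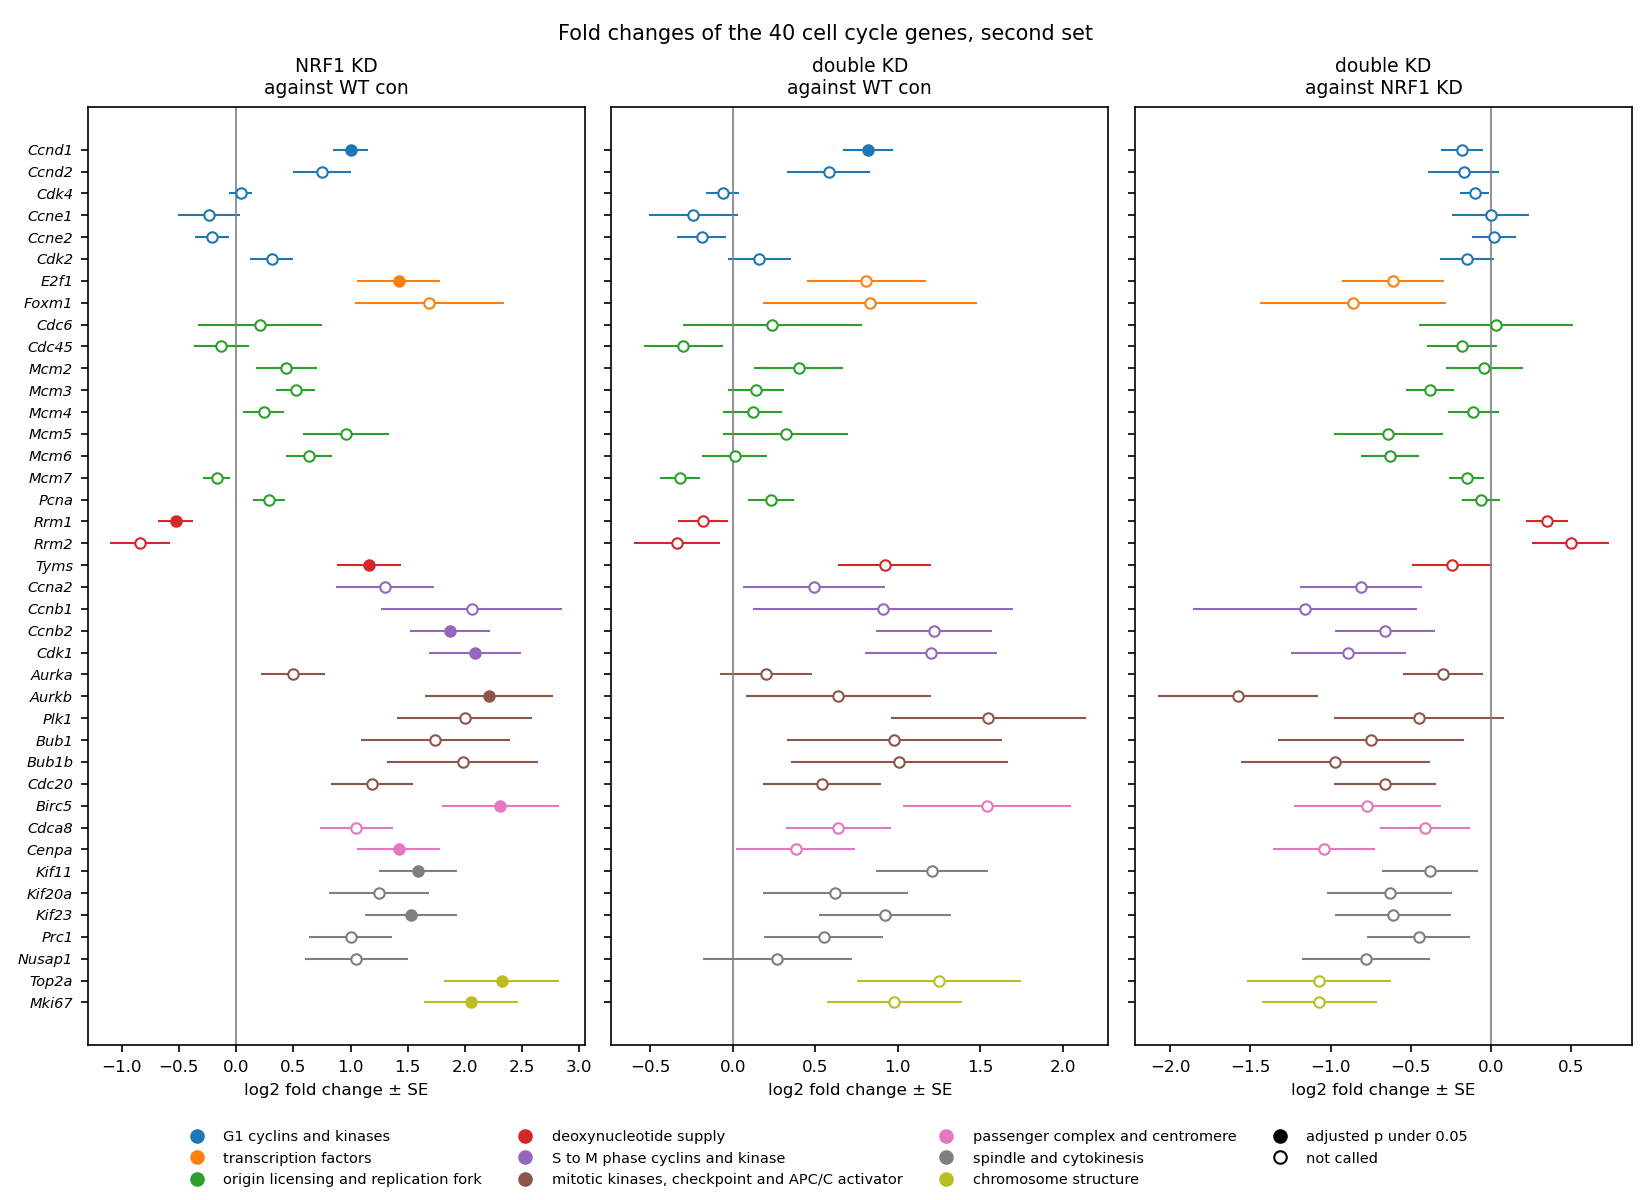
Log2 fold changes with their SE for the 40 genes, ordered and coloured by role, in 3 comparisons of the second set; filled points passed an adjusted p of 0.05. The mitotic genes lie at 1.00 to 2.32 for NRF1 KD over WT con, apart from Aurka at 0.50, and below 0 for double KD over NRF1 KD without a filled point.

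Among the further lists, beside 11.3% of all genes called in this comparison, 14 of 44 mitotic genes were called higher in NRF1 KD than in WT con muscle and none lower, led by the kinetochore gene Knl1 (2.71, adjusted p = 0.00952) and the condensin gene Ncapg (2.49, adjusted p = 0.0109). Knl1 was the 1 gene of that list called in double KD muscle (2.25, adjusted p = 0.0366). Of 32 replication genes listed, 4 were called higher in NRF1 KD muscle, led by Uhrf1 (1.51, adjusted p = 0.0235) and Clspn (2.80, adjusted p = 0.0312). Of the other G1 genes, Ccnd3, the third D-type cyclin, was called higher (0.66, adjusted p = 0.0105), and E2f4 (-0.43, adjusted p = 0.0315), Rb1 (-0.49, adjusted p = 0.022) and Cdkn1a (-0.56 ± 0.12, adjusted p = 0.0181) were each the 1 gene of its list called, all lower. Cdkn1a had 12000, 11300 and 14100 normalised counts in double KD, 11400, 11400 and 11100 in NRF1 KD and 15100 and 18500 in WT con libraries, so every knockdown library was below WT con; the double KD did not pass (-0.43 ± 0.12, adjusted p = 0.0795). No other gene of these lists was called in double KD against WT con muscle, and none against NRF1 KD muscle.

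Several members rest on few reads or on shared loci. All 40 passed edgeR's filter on low counts; 13 had under 10 reads in at least 1 WT innervated library, Ccne1 and Bub1 in all 3, and 0 in a PAX4 KO library, so fold changes over innervated muscle of the mitotic members rest on small counts there. In the second set 5 members had under 10 reads in at least 1 library. In the annotation 19 of the 40 overlap another gene, among them Ccnd1, Ccnd2, Cdk4, Rrm1, Mcm7, Ccna2, Kif11, Top2a and Mki67, and reads of such partners cannot be told apart where counting ignores strand. Ccne1, E2f1, Pcna, Rrm2, Cdk1, Ccnb1, Ccnb2, Aurka, Birc5 and Tyms overlap none.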

How the data were processed

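Muscle RNA was taken up in TRIzol and SMARTER mRNA-Seq libraries were made from 1 ug, per the labels' protocols. The submitters' processing notes name the builds GRCm38 and mm10; which aligner and counter were used, and strandedness, were not given in the sources used here. Raw counts were deposited for 9 libraries of the first set. The authors gave the 8 libraries of the second set as log2 values, variance-stabilised as the values show, and a signal column, the mean normalised count. Adjusted p-value and log2 fold change columns deposited by the authors were only quoted as theirs. Labels name 23 samples, of which 6 have no column and were not analysed here: WT con library 1, 2 innervated samples and 3 samples at 14 d. Columns were tied to groups by name, and libraries are numbered within a group in ascending order of the number in the column name.

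Counts were tested with edgeR 4.0.16 (R 4.3.3), quasi-likelihood F test, TMM scaling, filterByExpr, all 3 groups in 1 fit. The log2 values were inverted to normalised counts, whose mean differed from the deposited signal by at most 3.34e-07%, and fitted by limma-trend (limma 3.58.1) as log2(value + 1), 3 groups in 1 fit; fold changes are on that scale and understate the change of low genes. Size factors gave whole reads for 100% of values within 0.05, and edgeR on these reads called 1673 genes between NRF1 KD and WT con. A gene was called where its Benjamini-Hochberg adjusted p over all genes tested was under 0.05; adjusted p-values come from these 2 fits where no other tool is named. Members and lists were chosen with earlier results of these data known. Values in every library are given for called members, up to 10 a comparison by adjusted p, and for 13 fixed members; list genes are named by smallest adjusted p, up to 2 in each direction, with the CDK inhibitors. Alternatives were DESeq2 1.42.0, limma-voom, other scaling, filters and pseudocounts, fits of only the groups compared, a replicate block, and each library left out. The fits were tested on simulated data. No libraries of a group were duplicates (chi-square divided by its degrees of freedom 21.8 to 84.4). A floor of 3 counts corresponds to 0.0722 to 0.148 CPM, a limit for counting error only.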

Additional observations from a re-analysis of the deposited data

How the results depend on the processing

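None of the gene results tested again and none of the members' medians changed direction. Counts of genes called were compared by size only. In double KD against NRF1 KD muscle, 12 genes were called higher and 9 lower in the main fit. Without NRF1 KD library 1 these were 20 and 124, and without double KD library 1 they were 69 and 89. Over the 34 gene results tested again, 362 of 435 alternatives kept the call and 73 lost it. Ccne1, Rrm2, Aurka and Ccnd2 kept their calls between WT denervated and WT innervated muscle under every alternative run, and Ccnd1 between NRF1 KD and WT con. Of the 40 members, 13 had under 10 reads in at least 1 WT innervated library, and the part of depth in their calls was not tested. Some libraries were left out together after seeing the data. Without WT innervated library 2 and WT denervated library 1, 4 members were higher and 3 lower in WT denervated muscle. Of all 16279 genes, 2617 were higher and 2398 lower there. None of the members was called in PAX4 KO against WT denervated muscle (169 genes called in all). In PAX4 KO against WT innervated muscle 26 members were higher and 2 lower, beside 3648 and 3059 of all genes.

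Leaving out each library in turn gave these ranges; where 1 WT con library was left, it was assumed to vary like the other groups. Members called higher: 2 to 7 in WT denervated and 11 to 25 in PAX4 KO against WT innervated, 2 to 22 in NRF1 KD and 0 to 3 in double KD against WT con. Members called lower: 1 to 2 in PAX4 KO against WT innervated and 0 to 1 in NRF1 KD against WT con. In all, 3509 to 5283 genes were called in WT denervated and 4781 to 6488 in PAX4 KO against WT innervated. All genes called: 1 to 26 in PAX4 KO against WT denervated, 550 to 1611 in NRF1 KD and 86 to 692 in double KD against WT con, and 1 to 158 in double KD against NRF1 KD. Members' medians: 0.25 to 0.75 in WT denervated against WT innervated, 0.28 to 1.04 in PAX4 KO against WT denervated, 0.91 to 1.52 in PAX4 KO against WT innervated, 0.91 to 1.37 in NRF1 KD and 0.35 to 0.68 in double KD against WT con, and -0.80 to -0.28 in double KD against NRF1 KD.

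In PAX4 KO against WT denervated muscle the main test called 3 genes, DESeq2 209, limma-voom 5 and edgeR with no low-count filter 456, which gave 2 members higher, Bub1b and Cdk1. With genes of a mean of at least 1 CPM the members' median in PAX4 KO against WT innervated muscle was 0.96, and with a mean of at least 50 normalised counts that of double KD against WT con was 0.39, over fewer members. In double KD against NRF1 KD muscle, 1 gene was called with a pseudocount of 0.1, 1 with a mean of at least 50 normalised counts and 79 with only the 2 groups compared; the last setting called 231 genes and 0 members in double KD against WT con. Members lower in NRF1 KD numbered 0 with TMM scaling and 0 with edgeR on recovered reads. The cause of these shifts was not tested.

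The WT denervated and WT innervated columns share their 3 numbers, but the labels do not say that a number is an animal. Deviations from the group means correlated at 0.197, 0.0596 and 0.336 between same-numbered libraries and at -0.233 to 0.0358 between the others, so each library correlated best with its own number, a hint from the data that the numbers may pair them; 1 pair was below 0.1, and the numbers are not taken as pairs. In the second set same-numbered libraries correlated at -0.387 to 0.297. A fit with the replicate block called 6 members higher and 2 lower in WT denervated muscle, beside 2538 and 2496 of all genes. In NRF1 KD it called 4 higher and 0 lower (630 genes). It called 0 in double KD against WT con (136 genes) and 0 in double KD against NRF1 KD (9 genes).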

Other observations

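Markers of other cell types present in muscle gave the following values. The 9 endothelial markers, among them Pecam1 and Cdh5, summed to 592 to 771 CPM in PAX4 KO, 542 to 703 CPM in WT denervated and 979 to 1080 CPM in WT innervated libraries, and 7 of 9 were called lower in WT denervated than in WT innervated muscle and 8 of 9 in PAX4 KO than in WT innervated muscle. Of 7 smooth muscle and pericyte markers, 6 and 4 were called lower in these comparisons, and of 9 Schwann cell markers 3 were lower and 1 higher in each. Of all genes, 15.8% and 18.2% were called lower in these comparisons, and 16.5% and 21.8% higher. Neutrophil markers summed to 34.1 to 57.1 CPM in PAX4 KO, 24.4 to 133 CPM in WT denervated and 3.52 to 6 CPM in WT innervated libraries, with WT denervated library 2 the highest, not library 1. Of the 6 tested, 5 were above 0 in PAX4 KO against WT denervated muscle. Their median there was 0.97 in log2, unlike the order of the sums, and none was called. Lymphocyte markers summed to at most 20 CPM in any library and erythroid markers to 165 to 278 CPM in PAX4 KO, 354 to 554 CPM in WT denervated and 444 to 1330 CPM in WT innervated libraries. The 6 adipocyte markers summed to 6810 to 8820 CPM in PAX4 KO, 8100 to 9190 CPM in WT denervated and 3830 to 5000 CPM in WT innervated libraries, with 1 called higher and 2 lower in WT denervated muscle. The sums do not follow most of these markers. Only 1 of the 6 was above 0 in each denervated group against WT innervated muscle. Their median log2 fold change was -1.03 in WT denervated and -1 in PAX4 KO muscle.

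In the second set, fibro-adipogenic progenitor and fibroblast markers summed to 39000 to 79500 normalised counts in double KD, 47200 to 71600 in NRF1 KD and 21300 to 40800 in WT con libraries. Of the 8, 4 were called higher in NRF1 KD and 3 in double KD muscle against WT con, beside 7.58% and 2.39% of all genes. None of the 9 endothelial markers was called by limma in any of the 3 comparisons, with 3 at an unadjusted p under 0.05 in NRF1 KD and 0 in double KD against WT con, and 0 in double KD against NRF1 KD. Their sums were 7770 to 11900 in double KD, 10800 to 14000 in NRF1 KD and 7290 to 11700 in WT con libraries.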
